A study of Homo sapiens with 8 samples.

Results

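The 3 sestrin genes (SESN1, SESN2 and SESN3) were followed through polysome gradients of human myeloid cell lines. With them were 7 other regulators of the growth kinase complex mTORC1 (CASTOR1, DEPTOR, RRAGC, RRAGD, FLCN, FNIP1 and EIF4EBP1). SESN2 had been picked because its level moved in opposite directions under the 2 cell line labels, and the other 9 genes were added as its pathway. All 10 were found among the 78932 gene IDs of the count table, and all 10 were among the 24289 genes that passed the filter on low counts. Because of that choice, the differences of SESN2 between genotype labels and between line labels are given as values with no test. The choice did not rest on the difference between pools, but that difference comes from the same 8 libraries.

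The study asked how overexpression of OGFOD1, a hydroxylase of the ribosomal protein RPS23, alters the RNA that ribosomes translate. The 8 libraries came from cells labelled Molm13, an established line of acute myeloid leukaemia, or U937, an established monocytic line. Of each line label, 1 gradient was labelled control (Scr in its library names) and 1 was labelled OE. OE stands for OGFOD1 overexpressed from a lentiviral vector, whose promoter the labels do not name. All cells were grown in RPMI1640 with 10% fetal bovine serum, treated with cycloheximide, which holds ribosomes on the RNA, and lysed, and the lysates were spun through sucrose. From each gradient a light pool (free ribonucleoproteins, single ribosomes and disomes) and a heavy pool (3 or more ribosomes per RNA) were sequenced. Pool and genotype label thus define 4 groups, each with 1 Molm13 and 1 U937 library (n = 2). The labels describe no separate cultures or clones within a line, so the p-values below speak only of how these libraries vary.

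mTORC1 sits on the lysosome and drives protein synthesis and growth when amino acids are plentiful. Without leucine, sestrins bind and inhibit the GATOR2 complex, GATOR1 then switches off the Rag GTPases, and mTORC1 leaves the lysosome; CASTOR1 does the same for arginine. Folliculin with FNIP1 acts on RagC and RagD, DEPTOR binds and restrains mTOR itself, and 4E-BP1 (the product of EIF4EBP1) blocks cap-dependent translation until mTORC1 phosphorylates it.

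The libraries held 25741930 to 89373133 counts, and 27392 to 33915 gene IDs had a count. Levels are given as CPM, counts corrected for library size. Of 10 myeloid markers, 9 were at 1 CPM or more in every library and ANPEP was below 1 CPM in all; the list summed to 884 to 1894 CPM. The T cell markers CD3D and TRAC were also above 1 CPM in every library, while CD3E, CD3G and CD8A were below it (list sum 38.2 to 240 CPM; 239.6 before rounding). The B cell list summed to 0.746 to 8.37 CPM, with MS4A1 at 0 in every library. The 5 erythroid markers summed to at most 0.175 CPM, and the epithelial and fibroblast list to 2.90 to 23.7 CPM. HOXA9, HOXA10 and MEIS1 together reached 113 to 161 CPM under both line labels.

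Each result below is to be read with 3 features of the libraries. OGFOD1 itself went against its label, and whether labels were exchanged or this row does not read the vector's transcript was not tested. Every OE direction below is by label only. Its level was 33.0 and 44.4 CPM in the light and heavy control pools labelled Molm13 and 16.7 and 25.3 CPM in the matching OE pools. Under the U937 label it was 49.8 and 60.2 CPM in control and 10.1 and 12.4 CPM in OE. OGFOD1 was thus lower in the libraries labelled OE in 4 of 4 matched pairs (log2 fold change -1.60, SE 0.30, adjusted p = 0.0178 by edgeR's quasi-likelihood test with Benjamini-Hochberg adjustment, used for every adjusted p unless another tool is named). The light control pool labelled Molm13 also stood apart from the rest. Mitochondrial RNA made up 2.49% of its counts, against 19.8% to 23.3% in the other light pools and 0.360% to 0.941% in the heavy pools. On the first principal component (45.2% of the variance) it scored 18.3, between the other light pools (-113 to -101) and the heavy pools (57.4 to 116). Lastly, no gene differed between the line labels at an adjusted p under 0.05 by edgeR (2862 of 24289 genes at an unadjusted p under 0.05; 303 genes by DESeq2, 1 by limma voom).

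**Figure D1:**
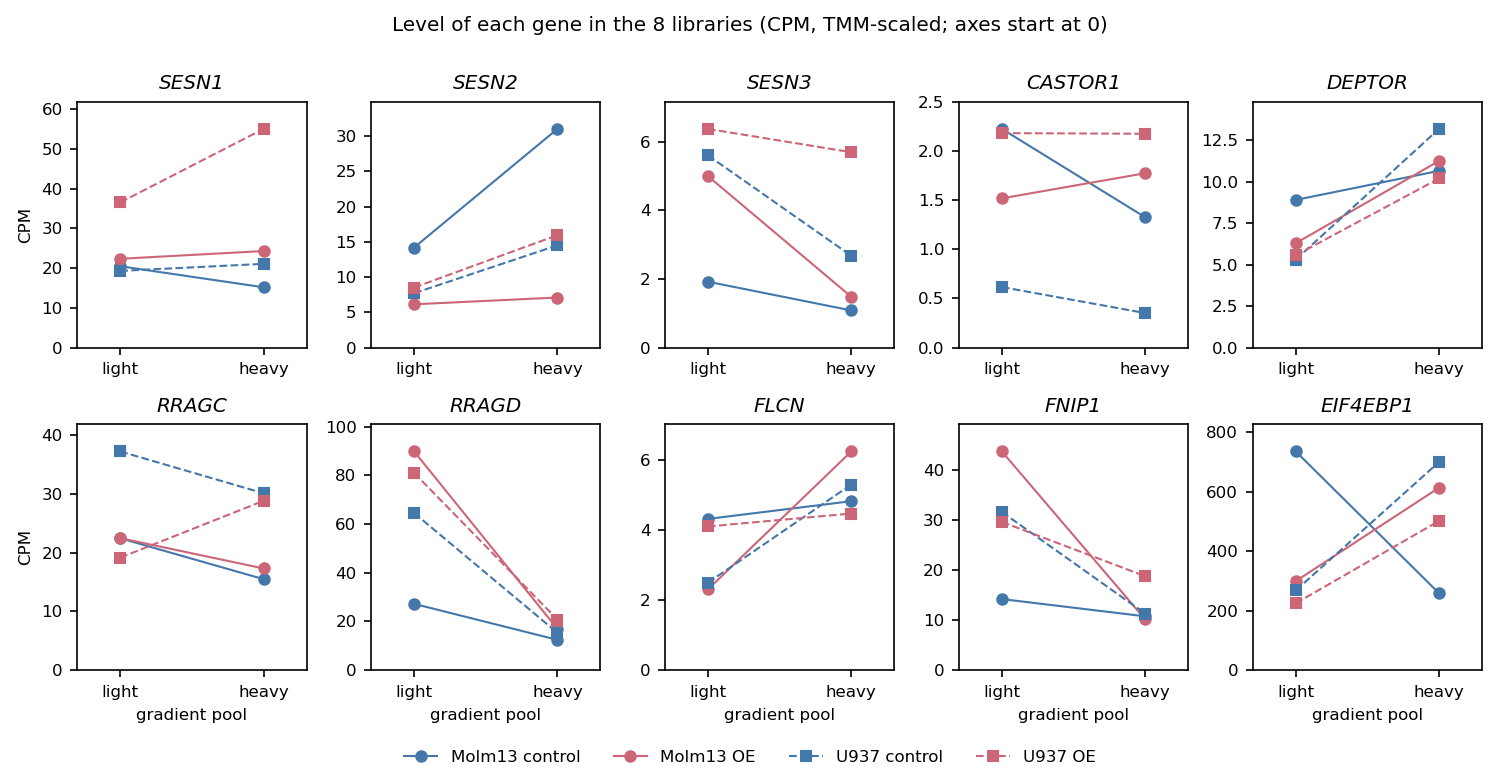
Level of each of the 10 genes in the 8 libraries, in CPM on axes that start at 0. Each line joins the light and heavy pool of 1 gradient; blue is control, red is OE, circles with solid lines are Molm13 and squares with dashed lines are U937. RRAGD is lower in the heavy pool of all 4 gradients, and EIF4EBP1 is higher there in 3 gradients but goes from 736 to 259 CPM in the Molm13 control gradient.

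Between the pools, 4 of the 10 genes passed the threshold: DEPTOR was higher in the heavy pool, and RRAGD, FNIP1 and SESN3 were lower. Over all genes tested, 28.6% passed in this comparison (15.8% higher in the heavy pool and 12.8% lower), so the share among these genes was of the same order. The median log2 fold change was -0.04 both over the 10 genes and over all genes tested. A CPM value is a share of the RNA of its pool, and both pools of a gradient come from the same lysate. A pool difference thus compares shares, and less of an RNA in a pool cannot be told apart from more of other RNA there. Between genotype or line labels, fewer expressing cells, less of an RNA per cell and more of other RNA cannot be told apart. Without the light control pool labelled Molm13, 7 of the 10 passed, with SESN2, FLCN and EIF4EBP1 added as higher, against 35.8% of all genes (20.2% higher and 15.6% lower).

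SESN2, on chromosome 1 (28259527 to 28282491, plus strand, GRCh38), encodes the sestrin best known as a leucine sensor, and its transcription is raised by ATF4. In the Molm13 control gradient it was at 14.2 CPM in the light pool and 31.0 CPM in the heavy pool. In the Molm13 gradient labelled OE it was at 6.14 and 7.10 CPM. In the U937 gradients it was at 7.71 and 14.5 CPM (control) and at 8.51 and 15.9 CPM (OE). The heavy control pool labelled Molm13 was the highest of the 8 libraries and the Molm13 pools labelled OE were the lowest, with 295 and 168 counts.

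These are the values for which SESN2 was picked. Under the Molm13 label, OE minus control was -1.20 in the light pool and -2.12 in the heavy pool on the log2 scale, and under the U937 label it was 0.14 in both. The counting intervals of the U937 pairs overlapped. At 95% (Poisson) they ran from 6.98 to 8.49 CPM (control) and from 7.73 to 9.36 CPM (OE) in the light pool, and from 13.6 to 15.4 and 15.1 to 16.8 CPM in the heavy pool. Intervals of this kind cover counting error only. Over all genes tested, 4.16% were lower in both Molm13 pairs and higher in both U937 pairs, and 7.02% split by line label in this or the opposite way; RRAGC was the other such gene of the 10. The value over both labels, -0.75, became 0.15 when the Molm13 control gradient was left out, which leaves the U937 label alone.

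The pool difference of SESN2 was not the contrast of that choice, but it reuses the same libraries, and the heavy control pool labelled Molm13 is the highest value in both; its p-values are therefore given as a description. SESN2 was higher in the heavy than in the light pool in 4 of 4 gradients, by 0.21 to 1.13 on the log2 scale, and the pools overlapped. Of all genes tested, 42.7% had the same sign in all 4 gradients. The fitted difference was 0.86 (SE 0.34, adjusted p = 0.0741) and did not pass the threshold. Without the heavy control pool labelled Molm13 it was 0.45 (adjusted p = 0.437), without the heavy OE pool labelled U937 0.35 (0.561) and without the light control pool labelled Molm13 1.19 (0.000805). Over the 16 alternatives the adjusted p ran from 0.000805 to 0.561. The difference passed in 6 of them, at 0.76 to 1.20, and did not in the other 10.

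Among the genes most like SESN2 over the 8 libraries were AP2A2 (Pearson r = 0.962 of log2 CPM, among 8367 genes with a symbol and a mean of at least 10 CPM), TMC8 (0.957), FBRS (0.955) and EML3 (0.937). AP2A2, which encodes a subunit of an endocytic adaptor, had 11.5 and 17.0 CPM in the Molm13 control gradient, 9.05 and 7.99 in Molm13 OE, 9.93 and 12.6 in U937 control and 9.03 and 12.6 in U937 OE, the same high library as SESN2. The 8 libraries share 4 gradients, so these correlations are descriptions.

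SESN1, on chromosome 6 (108986437 to 109094819, minus strand), encodes a sestrin that also binds GATOR2. It was at 20.5 and 15.2 CPM in the light and heavy pools of the Molm13 control gradient and at 22.3 and 24.3 CPM in Molm13 OE. It was at 19.3 and 21.1 CPM in U937 control and at 36.5 and 55.0 CPM in U937 OE. SESN1 shares 7.09% of its exonic bases with AL390208.1 on the opposite strand, which stood at 0.562 to 6.03 CPM. The libraries keep no strand information, so its counts are uncertain. All 4 libraries labelled OE were above all 4 labelled control, with the U937 pools labelled OE the highest.

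A separation of the labels, in either direction, occurred in 6.38% of all genes tested, and the same sign in all 4 matched pairs in 25.4%. The OE difference of SESN1 was 0.78 (SE 0.25, adjusted p = 0.0902), short of the threshold, and its 4 pairs ranged from 0.13 to 1.38. Of the alternatives with all 8 libraries, it passed with DESeq2 (0.78) and with gradient-blocked limma voom (0.78). In the latter the pools of a gradient are allowed to correlate. The correlation was put at -0.258, and a negative value makes that fit more lenient for a genotype difference than independent pools would. With the pools of each gradient summed, the OE difference of SESN1 was 0.81 (adjusted p = 0.226) and did not pass. Over all 17 alternatives it ran from 0.55 to 1.16. It was 1.00 without the light control pool labelled Molm13. The 1.16 came without the whole Molm13 control gradient and rests on the U937 label alone. Between the pools SESN1 differed by 0.10 (SE 0.25, adjusted p = 0.798), with the Molm13 control gradient at -0.43 and the other 3 at 0.12 to 0.59. The genes most like it were RHBDD2 (r = 0.979), VPS37A (0.975) and TBK1 (0.965).

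SESN3, on chromosome 11 (95165513 to 95232541, minus strand), is the sestrin known as a FOXO target. Per kilobase of exon it was the scarcest of the family. It was at 1.92 and 1.08 CPM (Molm13 control, light and heavy), 4.99 and 1.48 (Molm13 OE), 5.60 and 2.67 (U937 control) and 6.37 and 5.69 CPM (U937 OE), from 35 to 455 counts. SESN3 was lower in the heavy pool in 4 of 4 gradients, with a fitted difference of -0.96 (SE 0.31, adjusted p = 0.0359), although the pools overlapped. The call held in 7 of 16 alternatives, with differences from -1.23 to -0.61, and was lost without the line label in the model (adjusted p = 0.241; range over the alternatives 0.00739 to 0.241). It was also lost with either limma voom fit and without any 1 of 6 libraries, all but the light control pool labelled Molm13 and the light OE pool labelled U937. Without the light OE pool labelled Molm13 the difference was -0.61.

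By genotype label SESN3 was higher in OE in 4 of 4 pairs (0.84, SE 0.31, adjusted p = 0.130), and no alternative of the 17 passed. The same sign in all 4 pairs was seen in 25.4% of all genes tested. By line label its difference was the largest of the 10 genes, 1.27 higher under U937 (SE 0.32, unadjusted p = 0.00144, adjusted p = 0.262). DESeq2, the fit without the low-count filter and the fits without either light OE pool put the line difference past the threshold, at 1.28, 1.28, 1.59 and 1.59. Over 15 alternatives its adjusted p ran from 0.0168 to 0.967. PIP4K2A (r = 0.993), BMI1 (0.990) and TMEM185B (0.988) were the genes most like SESN3.

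CASTOR1, on chromosome 22 (30285117 to 30289627, minus strand), encodes the arginine sensor that binds GATOR2. It was scarce, with 26 to 210 counts. It was at 2.23 and 1.33 CPM in the Molm13 control gradient and at 1.52 and 1.77 CPM in Molm13 OE. In U937 control it was at 0.616 and 0.351 CPM, the lowest pair, and in U937 OE at 2.18 CPM in both pools. The 95% Poisson intervals of the U937 control pools (0.424 to 0.865 and 0.229 to 0.514 CPM) lay below those of every other library.

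OE minus control of CASTOR1 was therefore 1.77 and 2.53 under the U937 label, and -0.54 (light) and 0.41 (heavy) under Molm13. Over both labels the difference was 1.06 (SE 0.48, adjusted p = 0.218). It was 1.40 without the light control pool labelled Molm13. Without the whole Molm13 control gradient it was 2.22, a value that rests on the U937 label alone. It was 0.62 without the light and 0.59 without the heavy control pool labelled U937, and 0.68 without the light OE pool of that label. The pool difference was -0.34 (SE 0.45, adjusted p = 0.602). Of the exonic bases of CASTOR1, 46.0% are shared with AC004997.1 on the same strand. That annotation had 0.877 to 5.58 CPM, and a read in the shared bases counted towards both, so the 2 levels are uncertain.

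RRAGC and RRAGD encode RagC and RagD, which pair with RagA or RagB and carry mTORC1 to the lysosome; both genes and the folliculin genes are known targets of the lysosomal transcription factors TFEB and TFE3. RRAGD (chromosome 6, 89364636 to 89412270, minus strand) showed the largest pool difference of the 10. In the light and heavy pools it was at 27.2 and 12.4 CPM (Molm13 control) and at 89.8 and 16.9 CPM (Molm13 OE). In U937 it was at 64.5 and 15.3 CPM (control) and at 81.0 and 20.8 CPM (OE). Every light pool was above every heavy pool, and the light control pool labelled Molm13 was the lowest of the light pools. Of all genes tested, 18.9% had pools that did not overlap, in either direction.

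RRAGD fell 3.82-fold from the light to the heavy pool (log2 fold change -1.94, SE 0.27, adjusted p = 0.000713), lower in 4 of 4 gradients. It passed in all 16 alternatives, from -2.15 to -1.61. By genotype label, 25.4% of all genes tested had the same sign in all 4 pairs. RRAGD was higher in OE in 4 of 4 pairs, by 0.33 to 1.72, with a fitted difference of 0.72 (SE 0.26, adjusted p = 0.125). The largest of these pairs was the Molm13 light pool. It passed in 2 of 17 alternatives (adjusted p from 0.00701 to 0.500): gradient-blocked limma voom (0.73), and the fit without the light control pool labelled U937 (1.00). Without the light control pool labelled Molm13 it was 0.46. Without that whole gradient it was 0.39, which rests on the U937 label alone.

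RRAGC (chromosome 1, 38838198 to 38859823, minus strand) did not share that pattern. It was at 22.5 and 15.5 CPM (Molm13 control), 22.5 and 17.3 (Molm13 OE), 37.3 and 30.1 (U937 control) and 19.2 and 28.9 CPM (U937 OE). Its pool difference was -0.17 (SE 0.25, adjusted p = 0.634), and the U937 gradient labelled OE went the other way, at 0.59. Its OE difference was -0.20 (SE 0.25, adjusted p = 0.695). The U937 light pair, at -0.96, was the only one of the 4 beyond 0.16 in size. RRAGC shares 22.9% of its exonic bases with AL139260.2 on the same strand, which stood at 25.3 to 74.7 CPM, so its counts are uncertain.

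FNIP1 (chromosome 5, 131641714 to 131797063, minus strand) encodes the folliculin-interacting protein that bridges folliculin and the Rag GTPases. It was at 14.2 and 10.7 CPM in the Molm13 control gradient and at 43.7 and 10.1 CPM in Molm13 OE. In U937 it was at 31.6 and 11.3 CPM (control) and at 29.6 and 18.8 CPM (OE). The light pools were higher in each gradient, but the Molm13 control light pool lay below the U937 OE heavy pool, so the pools overlapped. FNIP1 shares 3.54% of its exonic bases with AC008695.1 on the same strand. That annotation stood at 8.83 to 23.0 CPM and was, like FNIP1, highest in the light OE pool labelled Molm13, so these counts are uncertain.

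FNIP1 fell 2.31-fold from light to heavy (log2 fold change -1.21, SE 0.29, adjusted p = 0.00826). The call held in 14 of 16 alternatives (-1.45 to -0.82) and was lost without either Molm13 OE pool: at -0.82 without the light one (adjusted p = 0.0660) and at -1.03 without the heavy one (0.0567). Over the 16 alternatives the adjusted p ran from 4.23e-06 to 0.0660. By genotype label its difference was 0.57 (SE 0.29, adjusted p = 0.265), with 2 pairs higher and 2 lower. It passed in 1 of 17 alternatives, without the light control pool labelled U937 (0.84, adjusted p = 0.0374; over the alternatives up to 0.769). It was 0.20 without the light OE pool labelled Molm13, 0.33 without the light control pool of that label, and 0.36 without the heavy OE pool labelled U937 or without the Molm13 control gradient.

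FLCN (chromosome 17, 17212212 to 17237188, minus strand) encodes folliculin, which with FNIP1 sets the nucleotide state of RagC and RagD. Its values ran the other way from those of its partner. FLCN was at 4.32 and 4.83 CPM (Molm13 control), 2.31 and 6.25 (Molm13 OE), 2.50 and 5.31 (U937 control) and 4.11 and 4.48 CPM (U937 OE). Every heavy pool was above every light pool. Of all genes tested, 18.9% had pools that did not overlap, in either direction. The pool difference of FLCN was 0.65 (SE 0.31, adjusted p = 0.129) and did not pass. It passed in 3 of 16 alternatives (adjusted p from 0.0178 to 0.422). These were the fits without the light control pool labelled Molm13 (0.95), without the Molm13 control gradient (0.94) and without the light OE pool labelled U937 (1.02). Without the light OE pool labelled Molm13 it was 0.41. The genotype difference of FLCN was 0.00 in size (SE 0.30). It shares 11.9% of its exonic bases with AC055811.2 on the same strand, which stood at 2.89 to 6.59 CPM, so its counts are uncertain too.

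Because RRAGC, RRAGD, FLCN and FNIP1 are known TFEB and TFE3 targets, RefSeq windows of 250 bases upstream of gene starts (GRCh38.p14) were searched for the E-box CACGTG, the core of the element these factors bind. Of the 10 genes, 7 had 9 windows; RRAGD, DEPTOR and EIF4EBP1 had none and were not searched. The E-box was in 2 of the 9, those of RRAGC and FNIP1, and in 6.34% of all 35116 windows; the motif is its own reverse complement, so both strands are covered. The windows are printed from their far end up to the first annotated base of the gene, 5′ to 3′ on the minus strand, at chr1:38859824-38860022 (RRAGC) and chr5:131797064-131797267 (FNIP1), with the E-box in capitals.
RRAGC: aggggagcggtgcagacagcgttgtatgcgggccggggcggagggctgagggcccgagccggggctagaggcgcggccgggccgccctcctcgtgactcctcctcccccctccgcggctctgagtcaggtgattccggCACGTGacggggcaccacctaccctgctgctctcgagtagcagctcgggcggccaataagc
FNIP1: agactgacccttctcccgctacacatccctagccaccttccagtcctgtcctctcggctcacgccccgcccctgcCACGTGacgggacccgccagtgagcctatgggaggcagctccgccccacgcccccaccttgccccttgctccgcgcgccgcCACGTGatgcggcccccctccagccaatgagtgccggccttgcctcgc
The E-box of RRAGC began 112 bases before the RefSeq start, and FNIP1 had a pair of them, at 175 and 94 bases. The pool and genotype differences of these genes were -0.17 and -0.20 (RRAGC) and -1.21 and 0.57 (FNIP1), of which the pool difference of FNIP1 passed. A match describes letters only. Of 3 further motifs searched on both strands, the ATF4 composite element TGATGCAA was in 0.772% of all windows, the cAMP response element TGACGTCA in 1.65% and the FOXO element GTAAACA in 2.98%. None of the 3 was in a window of these genes.

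DEPTOR (chromosome 8, 119873717 to 120050913, plus strand) encodes the mTOR-binding inhibitor. In the light and heavy pools it was at 8.89 and 10.6 CPM (Molm13 control) and at 6.28 and 11.2 CPM (Molm13 OE). In U937 it was at 5.30 and 13.2 CPM (control) and at 5.56 and 10.2 CPM (OE). Every heavy pool was above every light pool, with the smallest step in the Molm13 control gradient. Pools without overlap, in either direction, were seen in 18.9% of all genes tested. DEPTOR shares 9.61% of its exonic bases with AP005717.1 on the opposite strand, which stood at 0.936 to 2.53 CPM. The libraries keep no strand information, so its counts are uncertain too.

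DEPTOR rose by 0.82 from light to heavy (SE 0.25, adjusted p = 0.0289), in 4 of 4 gradients. The call held in 8 of 16 alternatives, with values from 0.61 to 1.10 and adjusted p from 0.00178 to 0.185. It was lost with upper-quartile scaling (0.64, adjusted p = 0.0688), with gradient-blocked limma voom (0.81) and without any 1 of the 6 libraries outside the Molm13 control gradient. Upper-quartile scaling moved the median of all genes by -0.18, as much as it moved DEPTOR. By genotype label DEPTOR differed by -0.21 (SE 0.25, adjusted p = 0.680), with 2 pairs on either side of 0.

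EIF4EBP1 (chromosome 8, 38030341 to 38060365, plus strand) had the highest level per kilobase of exon of the 10, with 11325 to 69405 counts per library. It was at 736 and 259 CPM in the light and heavy pools of the Molm13 control gradient and at 299 and 613 CPM in Molm13 OE. In U937 it was at 268 and 700 CPM (control; 699.9 before rounding) and at 225 and 502 CPM (OE). The heavy pool was thus higher in 3 gradients, by 1.04 to 1.39 on the log2 scale, and the Molm13 control gradient went the other way, at -1.51.

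Over all 4 gradients the pool difference of EIF4EBP1 was 0.56 (SE 0.41, adjusted p = 0.329). Without the light control pool labelled Molm13, the library that stood apart, it was 1.02. Without the heavy pool of the same gradient it was 1.05, and without that whole gradient 1.26. Over the 16 alternatives it ran from -0.08, without the heavy control pool labelled U937, to 1.26. The OE difference was -0.37 (SE 0.40, adjusted p = 0.634). Its 4 pairs were -1.30 and 1.25 in the Molm13 light and heavy pools and -0.25 and -0.48 under U937.

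**Figure D2:**
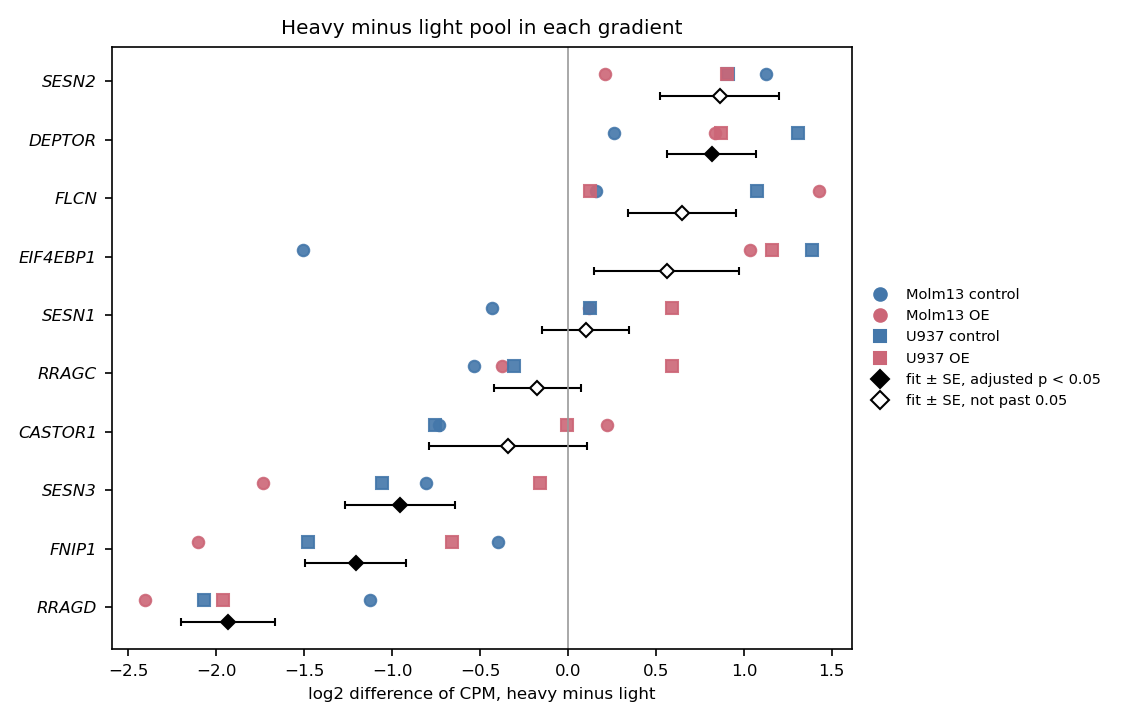
Heavy minus light pool for each gene, as a log2 difference of CPM. Circles (Molm13) and squares (U937) are single gradients, blue for control and red for OE, and the diamond below each set is the edgeR estimate with its SE, filled where the adjusted p was under 0.05. RRAGD, FNIP1, SESN3 and DEPTOR have filled diamonds, and EIF4EBP1 shows the single gradient at -1.51 apart from the other 3.

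SESN2 was chosen on its genotype differences, so it is left out of the calls given here. None of the other genes of the 10 passed between the genotype labels over both pools by edgeR. Of all genes tested, 4.37% passed (2.01% higher and 2.36% lower in OE). Among those other genes, 4 had an unadjusted p under 0.05 (SESN1, SESN3, CASTOR1 and RRAGD, each higher in OE). Over the whole table, 5384 of 24289 genes tested had an unadjusted p under 0.05 in this comparison. Of the other genes of the 10, DESeq2 called 1, limma voom 0 and gradient-blocked limma voom 2. The median over the 10, with SESN2 included as a value, was 0.28, against -0.05 over all genes tested. With the pools of each gradient summed, 0 genes of the whole table passed between the genotype labels, against 1061 with each pool as a library.

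**Figure D3:**
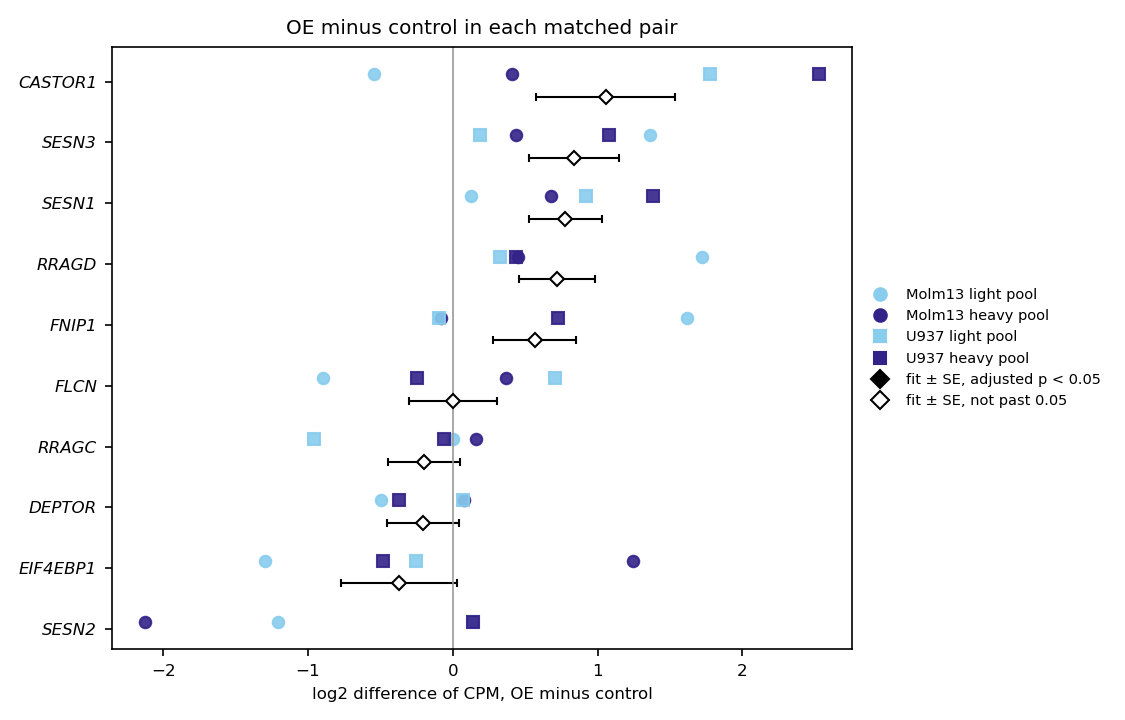
OE minus control for each gene in the 4 matched pairs, as a log2 difference of CPM. Circles are Molm13 and squares U937, light blue for the light and dark blue for the heavy pool; diamonds are edgeR estimates with SE, and SESN2 has none because it was chosen on these values. SESN1, SESN3 and RRAGD lie above 0 in all 4 pairs, where 25.4% of all genes tested had the same sign in all 4. The U937 points of CASTOR1 are the highest at 1.77 and 2.53, and both U937 points of SESN2 lie at 0.14.

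Whether the pool difference itself depended on the genotype label was tested with the interaction of pool and genotype. None of the 10 genes passed by edgeR, and none was under 0.05 before adjustment (DESeq2 and limma voom 0). The estimates ran from -0.55 (RRAGD, SE 0.52) to 1.07 (EIF4EBP1, SE 0.82), and the smallest adjusted p was 0.823. Over all genes 0% passed, with 1431 at an unadjusted p under 0.05 (6 by DESeq2, 0 by limma voom). The estimate for EIF4EBP1 ran from -0.29 to 2.18 over 16 alternatives and passed in 1 of them, without the light control pool labelled U937 (adjusted p = 0.0446; up to 1 over the alternatives).

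Between the line labels, with SESN2 again left out, none of the 10 passed by edgeR either, as over all genes (0%). Before adjustment 3 were under 0.05, SESN3, SESN1 (0.57) and RRAGC (0.55), all higher under U937. DESeq2 called SESN3 alone and limma voom none. No gene of the 10 had U937 and Molm13 libraries that did not overlap, which 2.4% of all genes did. The other estimates that may be tested ran from -0.71 (CASTOR1) to 0.42 (RRAGD).

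The wider pathway was read from 9 lists with 55 genes, of which 53 were tested. Between the pools 12 rose and 7 fell in the heavy pool, against 15.8% higher and 12.8% lower among all genes, with a median of 0.19 over the 53 against -0.04 over all genes. Without the light control pool labelled Molm13, 18 rose and 9 fell (20.2% and 15.6% among all genes). By genotype label 1 gene was higher and 1 lower in OE, both called against a background of 4.37%.

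Upstream of the Rag GTPases, GATOR1 and its anchor KICSTOR had 2 of 7 genes higher in the heavy pool, the GATOR1 subunit NPRL2 (0.90, adjusted p = 0.0126) and the KICSTOR subunit KPTN (1.51, 0.00113). GATOR2, the complex that sestrins and CASTOR1 bind, had 2 of 5, WDR24 (1.40) and SEC13 (1.40). Of 4 other sensors, CASTOR2, a relative of CASTOR1, rose (1.03) and BMT2, the S-adenosylmethionine sensor also called SAMTOR, fell (-1.57, adjusted p = 0.00169). BMT2 was also the gene of the 53 that was higher in the libraries labelled OE (1.07, SE 0.26, adjusted p = 0.0411).

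At the lysosome, 1 of 7 Rag and Ragulator genes rose (LAMTOR2, 1.01, adjusted p = 0.0465) and 1 fell (LAMTOR1, -1.49, adjusted p = 0.00149); both encode subunits of the Ragulator scaffold. FNIP2, the other folliculin partner, was at -0.36 (SE 0.33, adjusted p = 0.445). Of 7 genes of the mTOR complexes, RPTOR, which encodes the defining subunit of mTORC1, rose (0.96, adjusted p = 0.0366), and RICTOR, which encodes that of mTORC2, fell (-1.68, adjusted p = 0.00274). MTOR, the kinase itself, was not called between pools but was lower in the libraries labelled OE (-1.36, SE 0.26, adjusted p = 0.0175), at 6.01 to 25.5 CPM over the 8 libraries.

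Of 5 tested genes of the TSC complex, RHEB and REDD proteins, which gate mTORC1 downstream of growth factors and stress, TBC1D7 rose in the heavy pool (1.70, adjusted p = 0.00129). DDIT4, which encodes REDD1, was at 1.40 by genotype label (SE 0.39, adjusted p = 0.0613) and at 2.04 (adjusted p = 1.35e-07) without the light control pool labelled Molm13. Of 12 substrates and effectors, 4 rose in the heavy pool: EIF4EBP3 (1.62), ULK1 (1.13), EIF4E (0.84) and LARP1 (0.75). EIF4EBP2 (-2.13, SE 0.28, adjusted p = 0.000658) and the S6 kinase gene RPS6KB2 (-1.76) fell. The 3 genes of the 4E-BP family thus went apart, with EIF4EBP1 at 0.56 and not called. Of 5 AMPK subunit genes, PRKAB2 (-1.74) and PRKAG2 (-1.55) fell.

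In lists where no gene passed by genotype label, the 2 of smallest p were KPTN (-0.76) and ITFG2 (-0.56) for GATOR1 and KICSTOR, SEC13 (-0.68) and WDR24 (-0.55) for GATOR2, and LAMTOR2 (-0.75) and LAMTOR4 (-0.72) for Rag and Ragulator. They were DDIT4 and TBC1D7 (-0.68) for the TSC list, LARP1 (-0.61) and EIF4EBP3 (-0.67) for the substrates and PRKAA1 (0.36) and PRKAG2 (0.25) for AMPK. FNIP2 was at 0.09. Before adjustment, 5384 of all 24289 genes tested were under 0.05 by genotype label. In the lists, 3 genes were under 0.05 in GATOR1 and KICSTOR and 2 each in the TSC and substrate lists. There was 1 each in GATOR2 and in Rag and Ragulator, and 0 in AMPK. DESeq2 called 1 in GATOR1 and KICSTOR and 1 in the TSC list, and limma voom called 1 in the TSC list.

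**Figure D4:**
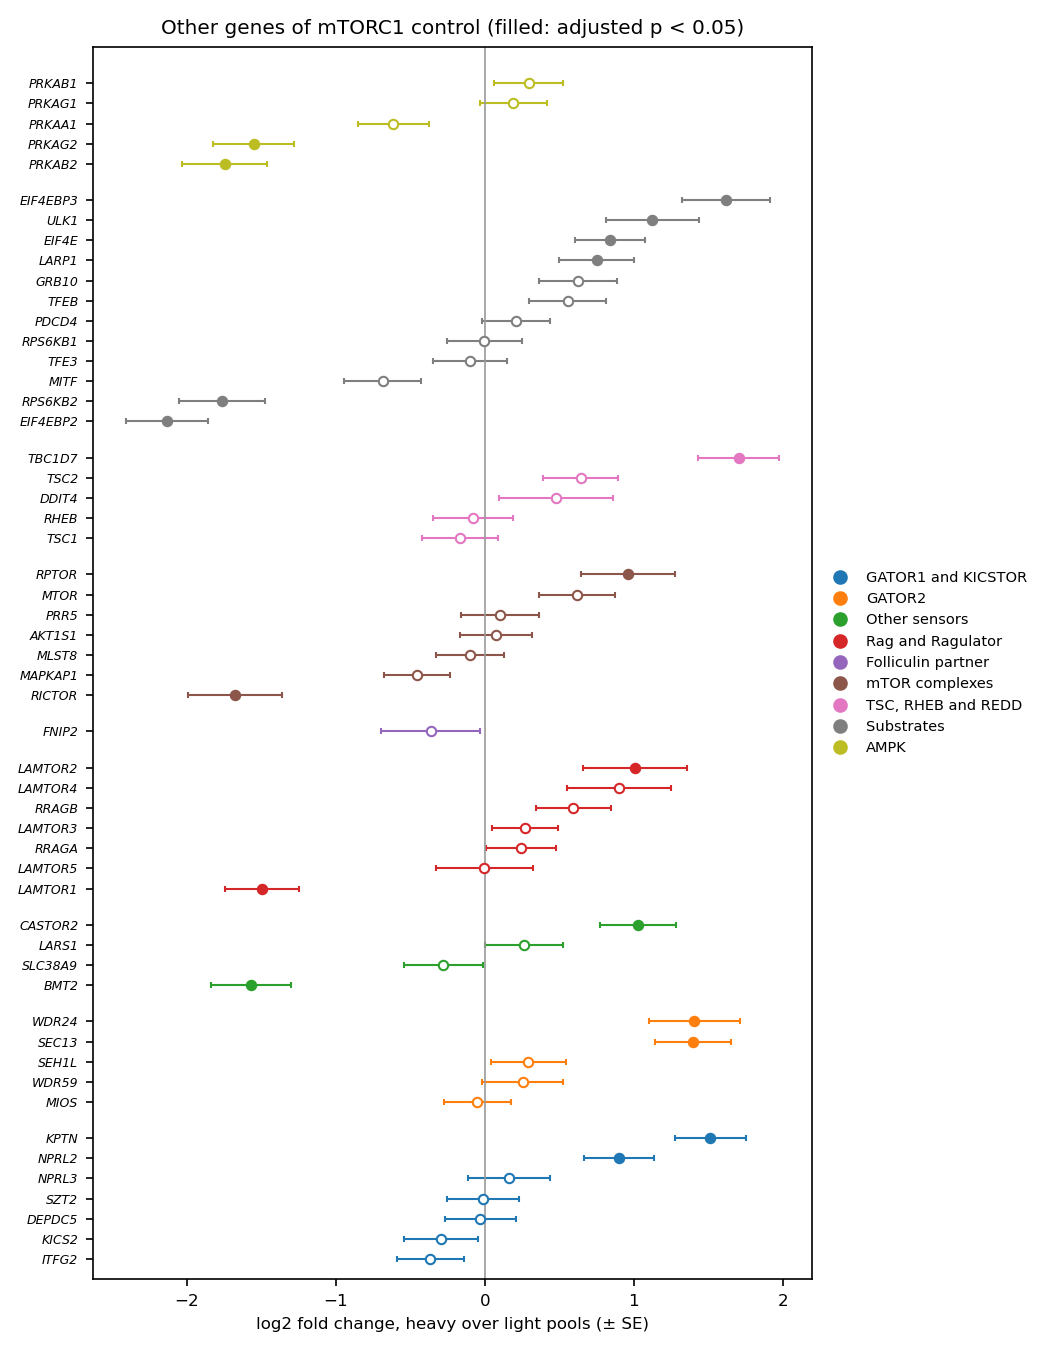
Log2 fold change between heavy and light pools, with SE, for the 53 tested genes of the wider pathway, coloured by list and ordered within it. Filled points have an adjusted p under 0.05: 12 lie above 0 and 7 below, from TBC1D7 at 1.70 to EIF4EBP2 at -2.13.

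Among transcription factor genes known to act on sestrins, ATF4 fell in the heavy pool (-1.61, SE 0.30, adjusted p = 0.00252). By genotype label NFE2L2 was at -0.58 (adjusted p = 0.209). Of 12 ATF4 targets, none passed between pools by edgeR (4 at an unadjusted p under 0.05, 2 by DESeq2, 0 by limma voom), with STC2 (0.71) and PSAT1 (0.66) of smallest p. In the libraries labelled OE, PSAT1, a serine synthesis enzyme, was lower (-1.30, adjusted p = 0.0177), and the other 11 did not pass. Of the 12, 7 were above 0, with a median of 0.13 against -0.05 over all genes tested. Without the light control pool labelled Molm13 the median was 0.42, against -0.02 over all genes, and again 7 of the 12 were above 0.

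Of 11 TFEB and TFE3 targets, 4 rose in the heavy pool: the autophagy receptor SQSTM1 (1.04), the lysosomal channel MCOLN1 (0.79) and the lysosomal enzymes CTSD (1.18) and GLA (1.35), where 15.8% of all genes rose. Without the light control pool labelled Molm13, 7 of the 11 rose, against 20.2%. RRAGD and FNIP1, also targets of these factors, fell. By genotype label GPNMB was higher in OE (2.27, SE 0.44), at 0.149 to 2.46 CPM. Of 11 FOXO targets, CITED2 rose (0.71) and CCNG2 fell (-1.51) in the heavy pool, and CCNG2 (1.18), PIK3IP1 (1.39) and BNIP3 (1.47) were higher in OE, as were 2.01% of all genes; SESN3, at 0.84, was not called.

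The genes that fell in the heavy pool had the longest annotated 3′ untranslated regions of the 10. In the longest coding transcript this region was 7745 bases in SESN3, 3423 in RRAGD and 2973 in FNIP1, and in the other 7 genes it ran from 433 bases (EIF4EBP1) to 1692 (SESN2). This feature was looked up after the pool differences were known. Over 13342 coding genes, the pool difference and that length correlated at a Spearman rho of -0.260 (across genes, which are not independent), against -0.0991 for coding length. With these genes cut into 4 equal classes of 3′ length, the median pool difference went from 0.45 in the shortest class through 0.30 and 0.08 to -0.18 in the longest. RRAGD, FNIP1 and SESN3, at -1.94, -1.21 and -0.96, lay below the median of their class.

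**Figure D5:**
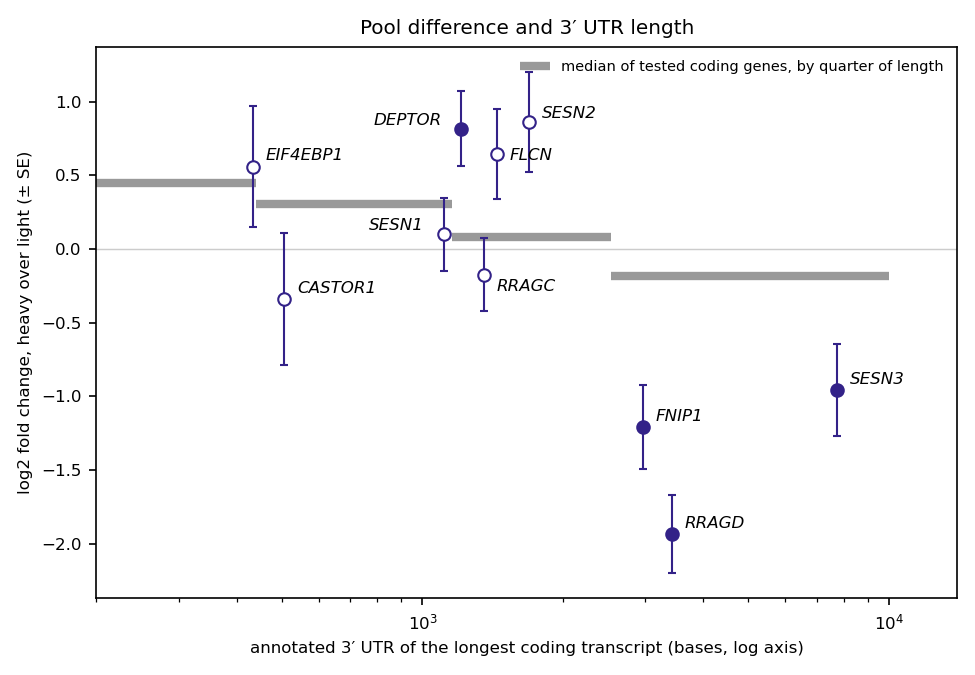
Log2 fold change between heavy and light pools (with SE) against annotated 3′ untranslated length in bases on a log axis, for the 10 genes; filled points have an adjusted p under 0.05. Grey bars give the median of tested coding genes in each of 4 classes of length, from 0.45 to -0.18, and RRAGD, FNIP1 and SESN3 sit at the lower right.

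Per kilobase of exon, with all 8 libraries averaged, EIF4EBP1 had by far the highest level of the 10, at 420 CPM per kb (419.5 before rounding), followed by RRAGD at 8.08. EIF4EBP1 was above RRAGD in 8 of 8 libraries. Below RRAGD came SESN1 (5.23), RRAGC (4.67), SESN2 (3.81), DEPTOR (3.40) and FNIP1 (2.68), in which neighbours exchanged places: RRAGD was above SESN1 in 4 of 8 libraries, SESN1 above RRAGC in 4, SESN2 above DEPTOR in 5 and DEPTOR above FNIP1 in 5. RRAGC was above SESN2 in 7 of 8. The scarce genes were CASTOR1 (0.554), FLCN (0.436) and SESN3 (0.352). FNIP1 was above CASTOR1 in 8 of 8 libraries, while CASTOR1 was above FLCN in 5 and FLCN above SESN3 in 4.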

How the data were processed

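The submitters' processing notes name cutadapt, STAR, featureCounts and the build GRCh38; tool versions, annotation release and strand setting: not given in the sources used here. Deposited were the raw counts, reads per gene as whole numbers, of 78932 Ensembl gene IDs for 8 libraries. Libraries were prepared with a Smart-seq kit, per the labels' protocols; such kits keep no strand information. Symbols were found for 42179 IDs and for 17214 of 24289 tested genes. TALAM1 held 99.95% to 99.98% as many counts as its antisense partner MALAT1, so a read in 2 overlapping genes counted towards both. Positions and transcript lengths are from GENCODE 29, promoters from RefSeq.

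Groups came from the labels. The test was edgeR 4.0.16 (R 4.3.3) quasi-likelihood on the counts, filtered with filterByExpr and scaled by TMM, with group and line label in the model (3 residual degrees of freedom, biological coefficient of variation 0.359), Benjamini-Hochberg adjustment over all tested genes and a threshold of 0.05. Pools of 1 gradient were treated as independent libraries, except in the gradient-blocked and summed alternatives. The gradient-blocked fit put the correlation between pools of a gradient at -0.258, so it was the more lenient one for genotype differences. The line label pairs libraries of the same cell line across groups, and their deviations from group means correlated at 0.0169 to 0.338. CPM values are TMM-scaled, and correlations used log2 CPM with a prior count of 2. Scripts were tested on simulated data.

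Alternatives were RLE and upper-quartile scaling, no low-count filter, DESeq2 1.42.0, limma 3.58.1 voom, alone and with gradients as a random effect (gradient-blocked), no line label in the model, summed pools, each library left out and, added after seeing the data, the Molm13 control gradient left out. With that gradient out, both control groups hold U937 libraries only, so a genotype difference there is that of the U937 label alone. The genes, the lists and the tests were chosen with earlier results of these data known. All 10 genes were described; of each wider list, genes past the threshold were named, up to 6 per direction, or the 2 of smallest p where none passed. A few genes and 1 list are not reported here.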

Additional observations from a re-analysis of the deposited data

Results flagged for a closer look

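In 2 of the 10 genes, both matched pairs of one line label moved one way between OE and control and both pairs of the other label the opposite way. SESN2, picked for this, was lower in OE by 1.66 on average under the Molm13 label (log2 difference -1.66) and higher by 0.14 under U937, a gap of 1.80. RRAGC was at 0.08 under Molm13 and -0.51 under U937, a gap of -0.59, and its light Molm13 pair differed by 0.00. With 1 gradient per line label and genotype, neither difference was tested. Over all 24289 genes tested, 7.02% showed opposite signs of this kind in either direction.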

How the results depend on the processing

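Counts of called genes depended on the libraries and the model, and the cause was not tested. Between pools 6937 genes passed, and 3801 to 9502 with 1 library left out; of the 10 genes 4 passed, 2 with gradient-blocked limma voom, 7 without the Molm13 control gradient and 1 to 7 with 1 library left out. By genotype label 1061 genes passed, against 2299 without the filter, 2655 with DESeq2, 116 with no replicate block (the line label out of the model), 3172 with gradient-blocked limma voom, 0 with summed pools, 3218 without the Molm13 control gradient and 18 to 3567 with 1 library left out. Of the 10 genes, with SESN2 left out because it was chosen on these differences, 0 passed, against 1 with DESeq2 and 2 with gradient-blocked voom. Some fits without 1 library or without the Molm13 control gradient also called SESN1, CASTOR1, RRAGD or FNIP1. Such fits leave a group with 1 library. The interaction had 0 calls, against 74 without the filter, 6 with DESeq2, 3 without that gradient and 0 to 1371 with 1 library left out (0 to 1 of the 10 genes). The line labels had 0 calls, against 412 without the filter, 303 with DESeq2, 1 with limma voom, 105 without that gradient and 0 to 131 with 1 library left out; of the 10 genes SESN3 passed, 1 call each, without the filter, with DESeq2 and in 2 of the fits with 1 library left out (0 to 1). Without the replicate block, 3 of the 10 passed between pools (RRAGD, FNIP1, DEPTOR), and the block changed no other call of theirs. Upper-quartile scaling moved the share higher among pool calls from 55.3% to 39.7% and among genotype calls from 45.9% to 61.0%, and put SESN1 at -0.084 between pools. Signs turned with 1 library left out for SESN1 (-0.10 to 0.35), CASTOR1 (-0.83 to 0.20), RRAGC (-0.40 to 0.12) and EIF4EBP1 (-0.077 to 1.05) between pools, and by genotype label for DEPTOR (-0.38 to 0.00097), RRAGC (-0.48 to 0.036), FLCN (-0.34 to 0.26) and EIF4EBP1 (-0.75 to 0.31). FLCN by genotype label was also at 0.010 with RLE and with DESeq2, 0.084 with upper-quartile scaling and 0.26 without the Molm13 control gradient, where SESN2 was at 0.15. Of the other values between pools and by genotype label for the 10 genes and by line label for SESN3, 281 kept direction and side of the threshold, 25 newly passed and 19 no longer passed. These counts include the values of SESN2 by genotype label, as a description only. Interaction estimates of 7 of the 10 genes and line differences of 5 took both signs over their alternatives. CASTOR1 and SESN3, the scarcest by count, carried the widest counting error.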
